A study of Drosophila melanogaster with 2 samples.

Results

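Divergent promoters, stretches of DNA from which 2 neighbouring protein-coding genes are transcribed in opposite directions, held 597 of the 2746 peaks on the thresholded list of cato binding (21.7%, Wilson 95% interval 20.2% to 23.3%). The list is the irreproducible discovery rate (IDR) list, made from both replicates on the genome build dm6. A peak was counted when its summit lay within 500 bp of annotated starts of at least 2 protein-coding genes on opposite strands. Of the other IDR peaks, 813 had starts on only 1 strand within 500 bp (single-orientation promoter peaks), and 1336 had no start within that distance. The data come from whole Drosophila melanogaster embryos of both sexes at 0 to 16 h, from a stable transgenic line whose cato protein ends in enhanced green fluorescent protein (eGFP). Immunoprecipitation used an anti-GFP antibody. The 2 biological replicates, numbered 1 and 3, belong to the same and only condition, and no untagged or input library was analysed here. Whole embryos pool all cell types, so binding in few cells and weak binding in many cannot be told apart.

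Cato is a basic helix-loop-helix transcription factor related to atonal. Such factors bind E-boxes, CANNTG, as dimers, and in flies cato is known from the development of the peripheral nervous system. Divergent promoters are common in the compact fly genome and often serve broadly expressed genes. Their starts frequently carry short core promoter words: the DRE, bound by the factor DREF; the CGATA word of the boundary factor BEAF-32; Motif 1, bound by M1BP; and Motif 7.

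The first set shows 5 of the 6 strongest divergent promoter peaks, because they show which of the words above stand under the highest summits. The fourth strongest, Pex11ab / CG8320, is not shown. Sequences are the plus strand of dm6 from the RefSeq copy of the assembly. Capitals mark matches, on either strand, to TATCGATA (DREF), CGATAG (BEAF), GGTCACAC (Motif 1), CANCNCTA (Motif 7) and CANNTG (E-box). Windows reach 100 bp to each side of the summit, and only 30 bp are given where the summit lies in an exon.
Chro / Ssl1 chr3L:22878883-22878912: attgcctgtCGATAGctttaaactaactgc
Tcs5 / CHMP2B chr3L:5139399-5139599: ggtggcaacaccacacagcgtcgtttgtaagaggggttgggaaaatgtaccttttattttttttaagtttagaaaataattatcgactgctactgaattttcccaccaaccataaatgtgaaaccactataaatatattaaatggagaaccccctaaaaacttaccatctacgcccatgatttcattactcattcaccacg
Art3 / mRpS10 chr3R:15229414-15229614: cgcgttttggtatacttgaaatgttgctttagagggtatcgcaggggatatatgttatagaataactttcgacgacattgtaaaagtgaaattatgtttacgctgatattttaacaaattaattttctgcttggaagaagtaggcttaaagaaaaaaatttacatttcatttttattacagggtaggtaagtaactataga
mRpS23 / CenG1A chr2L:13835353-13835553: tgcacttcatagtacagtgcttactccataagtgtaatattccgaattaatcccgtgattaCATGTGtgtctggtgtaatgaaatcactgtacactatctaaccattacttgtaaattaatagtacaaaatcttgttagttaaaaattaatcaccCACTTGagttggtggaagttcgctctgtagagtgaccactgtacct
Fbw5 / CG9147 chr2L:6066081-6066110: gCAGTTGcagtagttcaaaaattaagttaa

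The Tcs5 / CHMP2B and Art3 / mRpS10 windows hold none of the 5 words. The Chro / Ssl1 stretch holds a BEAF word and no E-box. The mRpS23 / CenG1A window holds 2 E-boxes, CATGTG and CACTTG, and the Fbw5 / CG9147 stretch holds CAGTTG. The next pair of stretches are the strongest divergent promoter peaks with a DREF word and with a Motif 1 word within 50 bp of the summit, shown because both lie at ribosomal protein genes. In the RpL28 / eIF1 stretch the DREF word overlaps a BEAF word on the other strand.
RpL28 / eIF1 chr3L:3222975-3223075: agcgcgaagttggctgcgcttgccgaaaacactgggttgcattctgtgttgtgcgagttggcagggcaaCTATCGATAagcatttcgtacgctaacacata
CG7130 / RpLP0 chr3L:22076043-22076072: gtatcttattcgccatcgaagcGGTCACAC

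The last 3 stretches run between the starts of the strongest pairs over 200 and up to 300 bp apart with a Motif 7 word between them, with only that word in capitals. They were chosen after the values for Motif 7 had been seen. In each the word lies to one side of the peak summit, which is at base 132 for Atat / Shc, 190 for Reps / l(2)gd1 and 233 for CG4743 / Idh3g.
Atat / Shc chr3L:9426759-9427009: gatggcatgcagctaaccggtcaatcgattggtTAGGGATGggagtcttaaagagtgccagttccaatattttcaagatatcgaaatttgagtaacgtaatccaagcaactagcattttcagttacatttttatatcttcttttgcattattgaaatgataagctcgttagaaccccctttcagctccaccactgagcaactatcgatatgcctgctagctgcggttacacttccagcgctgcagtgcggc
Reps / l(2)gd1 chr2L:11106646-11106942: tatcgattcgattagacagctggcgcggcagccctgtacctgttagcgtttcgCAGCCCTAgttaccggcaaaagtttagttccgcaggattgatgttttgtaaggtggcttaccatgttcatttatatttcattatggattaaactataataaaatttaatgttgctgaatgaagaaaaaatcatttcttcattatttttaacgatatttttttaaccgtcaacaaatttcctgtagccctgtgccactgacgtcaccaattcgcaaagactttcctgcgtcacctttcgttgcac
CG4743 / Idh3g chr3R:25680551-25680844: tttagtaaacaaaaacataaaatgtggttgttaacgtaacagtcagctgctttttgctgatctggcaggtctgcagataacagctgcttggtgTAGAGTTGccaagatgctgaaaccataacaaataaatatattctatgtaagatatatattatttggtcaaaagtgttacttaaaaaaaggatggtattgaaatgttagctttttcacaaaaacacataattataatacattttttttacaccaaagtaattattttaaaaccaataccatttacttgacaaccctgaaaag

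The strongest divergent promoter peaks were strong in both replicates. The signal value is the peak caller's own height for each peak, as the authors deposited it, and serves only to rank peaks within a list. The peak between Chro, which encodes the interband chromatin protein Chromator, and Ssl1, a subunit of the transcription factor TFIIH, had a signal value of 853.1 in the IDR list. The strongest overlapping peak had 315.6 in replicate 1 and 386.9 in replicate 3. It ranked 4 and 7 in those lists of 30000. The peak between Tcs5, a kinase of the tRNA-modifying KEOPS complex, and CHMP2B, an ESCRT-III membrane-remodelling subunit, had 757.6, with 299.8 in replicate 1 and 335.4 in replicate 3. The peak between Art3, a protein arginine methyltransferase, and mRpS10, a mitochondrial ribosomal protein, had 728.5, with 239.4 in replicate 1 and 364.4 in replicate 3.

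The genes at the other 7 of the 10 strongest peaks served varied functions. Pex11ab / CG8320, at a gene of the peroxisomal PEX11 family, had 727.7, with 242.6 in replicate 1 and 366.2 in replicate 3. The mRpS23 / CenG1A peak, beside another mitochondrial ribosomal protein gene, had 637.8, with 199.8 in replicate 1 and 308 in replicate 3. Fbw5 / CG9147, at an F-box protein gene, had 591, with 220.4 in replicate 1 and 288.7 in replicate 3. All of these were among the 21 strongest peaks of both replicates. CG5611 / Mtl had 573. Lon / PIG-F had 516; Lon is a mitochondrial protease, and PIG-F acts in GPI anchor synthesis. Atat / Shc, an alpha-tubulin acetyltransferase and a signalling adaptor, had 497.3, and Mkk4 / SLIRP2, at a kinase of the JNK pathway, had 493.

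Across all 597 divergent promoter peaks the signal value ran from 69.0 to 853.1 with a median of 113.7, against medians of 110.4 in single-orientation promoter peaks and 101.1 in the other peaks. Among the 274 strongest peaks, which are 9.98% of the list, were 76 divergent promoter peaks (12.7%) and 102 single-orientation ones (12.5%). Of the divergent promoter peaks, 488 (81.7%, Wilson 95% interval 78.4% to 84.6%) were strong in both replicates, meaning that each replicate list had a peak ranked 2746 or better that shared at least 1 bp with them. The share was 77.5% of single-orientation promoter peaks, 71.9% of the others and 75.7% of all IDR peaks. The interval of the divergent peaks overlaps that of single-orientation ones, 74.5% to 80.2%. Over the 597 peaks, which share the same libraries, the signals of both replicates had a Spearman rank correlation of 0.79 and a Pearson r of 0.82 on log2 values. The replicate values of 31 peaks repeat those of a stronger neighbour that overlaps the same replicate peaks. With 1 peak per pair (565 peaks, chosen after seeing the data) the values were 0.78 and 0.82, and 457 peaks (80.9%) were strong in both. This is a description, since the IDR procedure selects on agreeing ranks. Peaks of 1 list are not replicates of a condition, and every interval here covers counting error only.

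**Figure D1:**
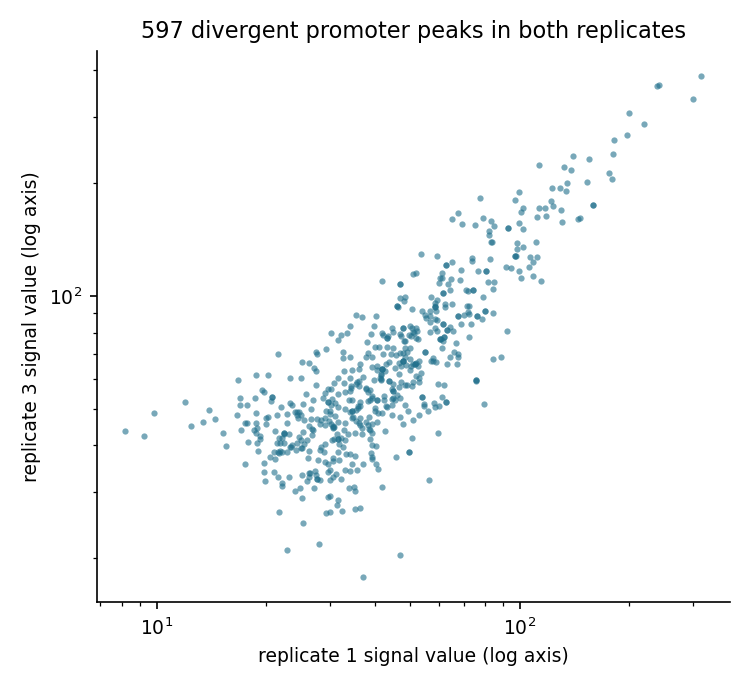
Each point is 1 of the 597 divergent promoter peaks, with the signal value of its strongest overlapping peak in replicate 1 (x axis) and in replicate 3 (y axis), both on log axes without units. The strongest in the IDR list, Chro / Ssl1, is at 315.6 and 386.9. The IDR procedure selects on agreeing ranks, so the agreement shown is a description, and scatter by signal level was not measured.

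Some of the peaks may not be separate sites, which was not tested. The 597 peaks had 565 distinct nearest pairs of genes, and 32 pairs held 2 peaks each. In 30 of those pairs the summits were at most 220 bp apart, with a median of 202 bp over the 32, and in another they were 239 bp apart. Such peaks overlap, since 537 of the 597 peaks are 404 bp wide. Over the whole IDR list no neighbouring summits were under 199 bp apart. The peak pair at Bdp1 / CG6565 had signal values of 401.8 and 116.8, and that at RpL28 / eIF1 had 197.5 and 70.2. With 1 peak per pair the median signal was 117.7.

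Most summits lay in the space between the starts. The starts were head to head, with the genes pointing away from each other, at 593 peaks and in another arrangement at 4. The distance between starts had a median of 293 bp, with quartiles of 226 and 392 bp. The shortest, -234 bp, was at CG31808 / Cyt-c-d (signal 281.8), where the genes overlap; Cyt-c-d encodes a cytochrome c. Among head-to-head pairs the shortest was 2 bp, at dpa / didum (signal 155.9); dpa encodes a subunit of the MCM replicative helicase. The longest, 813 bp, was at CG4297 / MED15 (signal 194.3), MED15 being a Mediator subunit. Of all 597 summits, 515 (86.3%, 83.3% to 88.8%) lay between the starts. By annotation 442 (74.0%) were between genes, 93 in UTRs, 60 in introns and 2 in coding exons. Of single-orientation promoter summits, 52.8% were between genes and 34.8% in introns. The classes differ by rule in the starts around the summit, so this difference is partly set by the rule.

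The place of the summit differed with the distance between the starts, within the bounds that the rule sets. Where these were over 200 and up to 400 bp apart, written as 200 to 400 bp from here on, 339 of 358 summits lay between them, at a median of 95 bp upstream of the nearer start. Where they were more than 400 bp apart, 135 of 135 did, at a median of 170 bp upstream. That count is largely fixed by the rule: a summit within 500 bp of both starts must lie between starts over 500 bp apart, and can lie at most 100 bp outside starts 400 bp apart or more. Where head-to-head starts were at most 150 bp apart, 24 of 81 summits lay between them, and the median summit was 35 bp inside the nearer gene. Chro / Ssl1, with starts 105 bp apart, is of that kind, its summit being 87 bp inside Chro. Starts at most 150 bp apart leave little room between them within the 500 bp reach. The count and the median there are therefore also partly set by geometry. These distance classes were chosen after seeing the data.

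**Figure D2:**
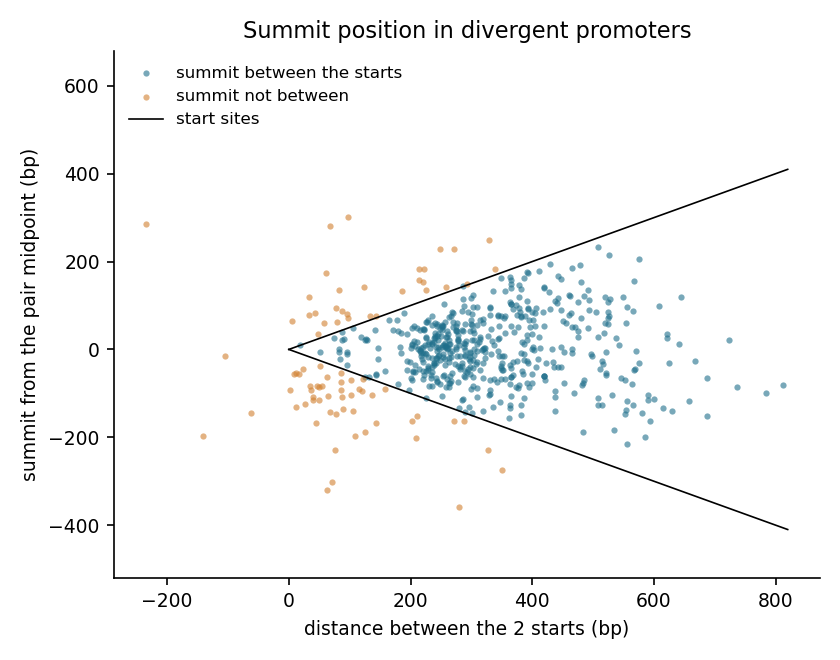
Each point is a divergent promoter peak, by the distance between the starts of its pair (x axis, bp) and the position of its summit from the midpoint of the pair (y axis, bp); the black lines are the start sites. At up to 150 bp, 24 of 81 summits of head-to-head pairs fall between the lines; above 500 bp the rule lets no summit fall outside them.

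The rule has a limit at 500 bp. Just inside it were app / CG32100, with the farther start 494 bp from the summit and a signal of 167.5, CG5946 / RpL10Ab at 495 bp with 76.8, and Klc / CG10984 at 498 bp with 74.7. Just outside were CG10804 / CG10802 at 502 bp with 122, tank / CG12194 at 506 bp with 438.8, and CG13531 / RpL23 at 509 bp with 124.1.

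Set against the annotation, the peaks marked a minority of divergent promoters. Ensembl lists 2720 pairs of protein-coding genes on opposite strands with starts at most 1000 bp apart, and an IDR summit lay within 500 bp of both starts in 622 of them (22.9%). A list of the same length from replicate 1 alone gave 24.2%, and from replicate 3 alone 21.7%. Of genes that belong to such a pair, 25.7% (1321 of 5141) had an IDR summit within 500 bp of a start, against 6.85% (605 of 8827) of genes in no pair. At a pair, 1 summit can count for both genes.

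The share of pairs with a summit was not even over the distance between starts. Of the 2615 head-to-head pairs, those 200 to 400 bp apart held a summit in 352 of 923 cases (38.1%, 35.1% to 41.3%). Pairs at most 200 bp apart did in 141 of 773 (18.2%, 15.7% to 21.1%), and pairs above 400 bp in 112 of 919 (12.2%, 10.2% to 14.5%). The rise was abrupt at 200 bp. Over 200 and up to 220 bp, 33 of 56 pairs had a summit (58.9%, 45.9% to 70.8%), against 11 of 72 over 180 and up to 200 bp (15.3%, 8.75% to 25.3%). Replicate 1 alone gave 55.4% against 15.3%, and replicate 3 alone gave 51.8% against 18.1%. Past 220 bp the share in the IDR list was lower again. It was 38.1% over 220 and up to 240 bp, 39.4% over 240 and up to 260 bp, and 37.4% over 260 and up to 280 bp.

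The same step appeared among the 10000 strongest peaks of each replicate, which include the 2746 used above. The shares were 80.4% against 26.4% in replicate 1 and 78.6% against 34.7% in replicate 3. Over 220 and up to 240 bp they were lower again, 53.4% in replicate 1 and 55.9% in replicate 3. Asking for a summit within 250 bp of the pair's midpoint gave the same counts, 33 of 56 and 11 of 72 pairs (58.9% against 15.3%). At these distances both rules can take the same summits, so this is no separate check. The fall above 500 bp is partly set by the rule, which a single summit can meet less easily as the starts move apart. When a summit within 500 bp of either start was enough, pairs over 600 and up to 700 bp apart had one in 17.8% of cases, in place of 6.58%. The distance steps and these other rules were chosen after seeing the data. GC content changed near the same distance. In pairs with a summit the median GC within 150 bp of the midpoint was 34.2% over 150 and up to 200 bp and 35.9% over 200 and up to 250 bp, and in pairs without one it was 39.5% and 34.6%. The step also lies close to the smallest spacing of neighbouring summits in the IDR list, 199 bp. The part of GC content and of that spacing in the step was not tested.

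**Figure D3:**
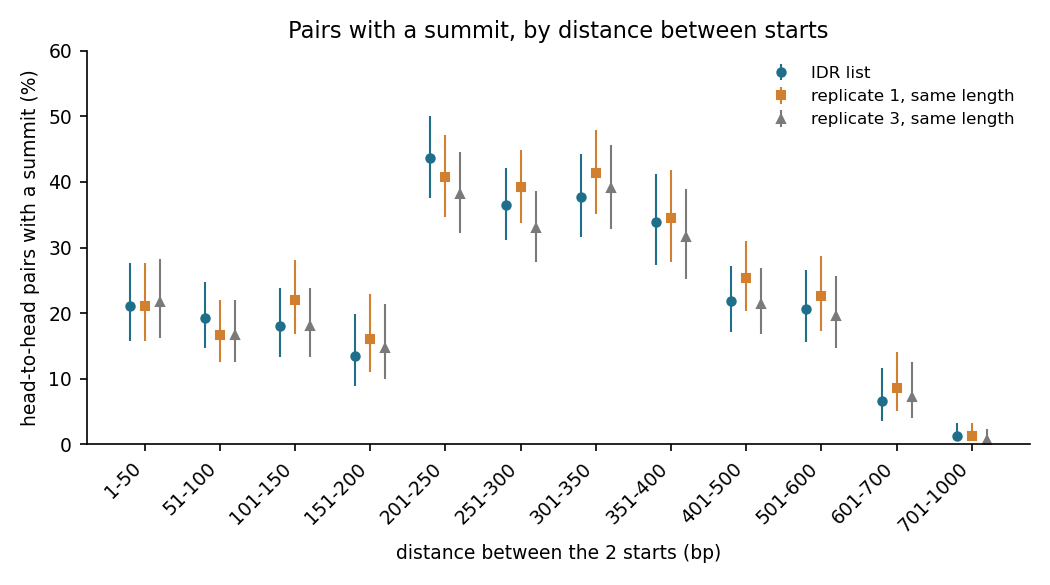
The y axis is the percent of head-to-head pairs with a summit within 500 bp of both starts, and the x axis the distance between the starts in bp. Points are the IDR list and lists of equal length from replicates 1 and 3, with Wilson 95% intervals; in the IDR list the share is 43.7% over 200 and up to 250 bp and 13.4% over 150 and up to 200 bp.

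Pairs on the X chromosome held summits less often than those on chromosomes 2 and 3. Of head-to-head pairs on X, 63 of 392 (16.1%) had one, against 542 of 2212 (24.5%, 22.8% to 26.3%) on the autosomes. Replicate 1 alone gave 17.6% on X and 25.6% on the autosomes, and replicate 3 alone 14.3% and 23.4%. Among pairs 200 to 400 bp apart the shares were 24.4% on X (17.9% to 32.4%) and 40.5% on the autosomes (37.1% to 43.9%). Genes in no pair had the other order, 8.13% on X and 6.64% on the autosomes. Embryos of both sexes were pooled, so a difference between male and female embryos cannot be told apart.

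E-boxes were no more frequent under divergent promoter summits than elsewhere. An E-box lay within 50 bp of 168 of the 597 summits (28.1%, 24.7% to 31.9%), against 264 of 813 single-orientation promoter summits (32.5%, 29.3% to 35.8%), 465 of 1336 other summits (34.8%) and 37.3% of midpoints of head-to-head pairs with no IDR summit. The GC content of the windows differs along with this, with a median of 29.7% at divergent and 31.7% at single-orientation summits. The E-box CAGCTG was in 3.18% of divergent promoter windows, against 7.36% of the midpoints with no summit. That low share was common to IDR summits, with 3.44% at single-orientation summits and 2.62% at the others. CACCTG was in 2.35% of divergent promoter windows, against 1.48% of single-orientation ones and 2.79% of those midpoints. CATATG was in 2.51%, against 4.06% and 3.28%.

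The core promoter words were infrequent under the summits too. DREF words stood in 23 of 597 windows (3.85%, 2.58% to 5.71%), against 18 of 813 single-orientation windows (2.21%) and 2 of 1336 others. BEAF words stood in 50 (8.38%, 6.41% to 10.9%), against 41 single-orientation windows (5.04%). These words overlap in sequence, and 18 windows held both. At the midpoints of head-to-head pairs with no IDR summit the shares were 5.57% for DREF and 10.8% for BEAF. Motif 1 was in 5 divergent promoter windows (0.838%), against 1.11% of single-orientation windows and 3.23% of those midpoints. Motif 7 was in 43 (7.20%), against 5.66% and 6.22%. The TATA word TATAAAA was in 14.1% of divergent promoter windows and 10.7% of single-orientation ones. GAGAG, bound by the GAGA factor, was in 5.53% against 9.10%, and the Zelda word CAGGTA in 1.34% against 0.984%. Positions of summits and midpoints within promoters differ, and a match is a description, not a site.

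Around the summit the DNA was poor in GC, and the contrast with the flanks was largest at divergent promoters. Mean GC was 29.6% at divergent promoter summits and 50.9% at 500 bp to the left of them. At single-orientation promoter summits it was 32.1% and 44.0%, and at the other summits 31.4% and 41.6%. The classes were thus closer at the summit than in the flanks. The rule asks for starts of opposite-strand genes near each divergent summit, so the flanks are not independent of it. Its part in the contrast was not tested.

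**Figure D4:**
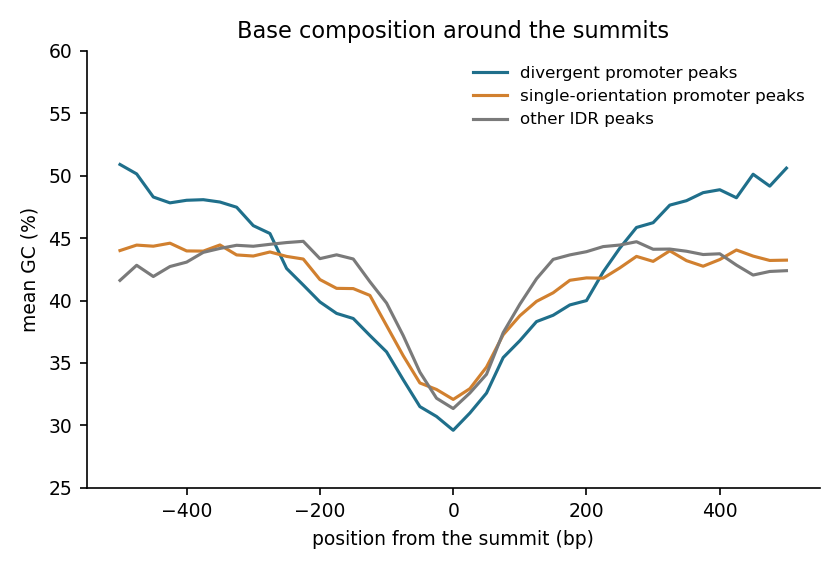
Mean GC (y axis, percent) by position from the summit (x axis, bp) for divergent promoter peaks, single-orientation promoter peaks and the other IDR peaks. The divergent line is lowest at the summit, 29.6%, and highest at 500 bp, 50.9%.

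Of 12 words searched near the middle of the pairs, Motif 7 was singled out after the values had been seen. Among head-to-head pairs 200 to 400 bp apart, those with Motif 7 within 150 bp of the midpoint held an IDR summit in 131 of 222 cases (59.0%, 52.4% to 65.3%), against 221 of 701 without it (31.5%, 28.2% to 35.1%). Replicate 1 alone gave 58.6% and 33.1%, and replicate 3 alone 53.6% and 29.8%. For DREF the shares were 41.2% with and 37.5% without, for BEAF 39.8% and 37.4%, and for Motif 1 35.5% and 38.5%. For the E-box CANNTG they were 35.7% with (32.2% to 39.4%) and 44.5% without (38.5% to 50.6%). The E-box CACGTG was in few pairs, 14 of 21 with a summit (66.7%, 45.4% to 82.8%), against 37.5% of pairs without the word. For CATATG it was 20 of 80 pairs, against 39.4% without the word. The other 5 words gave 29.2% to 44.3% with the word. The median GC content of the window was 35.2% with Motif 7 and 33.9% without.

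Motif 7 lies close to the starts, so it was also counted within 100 bp of each. At 200 to 400 bp, pairs with the word at both starts held a summit in 38 of 52 cases (73.1%, 59.7% to 83.2%). Pairs with it at 1 start did in 132 of 258 (51.2%, 45.1% to 57.2%), and pairs with it at neither in 182 of 613 (29.7%, 26.2% to 33.4%). The intervals of these 3 groups do not overlap. In replicate 1 the shares were 73.1%, 50.8% and 31.5%, and in replicate 3 67.3%, 46.9% and 28.1%. Above 400 bp they were 22.6%, 18.6% and 9.20%. At most 200 bp apart they were 22.7%, 27.1% and 16.1%, where 1 word can lie within reach of both starts.

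The contrast is not shown to be a property of pairs. Of genes in no pair, 11.9% with Motif 7 within 100 bp of a start had an IDR summit (105 of 880), against 6.29% without it (500 of 7947). For BEAF these shares were 11.2% and 6.19%, for Motif 1 12.6% and 6.57%, and for DREF 7.89% and 6.80%. In divergent promoters most Motif 7 words lay away from the summit. Of 358 peaks at pairs 200 to 400 bp apart, 174 had the word within 250 bp of the summit, at a median distance of 103.5 bp, and 30 had it within 50 bp. The share that evenly placed words would have within 50 bp was not computed, so avoidance of the summit is not shown. The median match lay 17 bp upstream of its start in pairs with a summit and 27 bp upstream in pairs without. It was on the strand of that gene in 84.0% of 181 matches and 68.2% of 110.

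**Figure D5:**
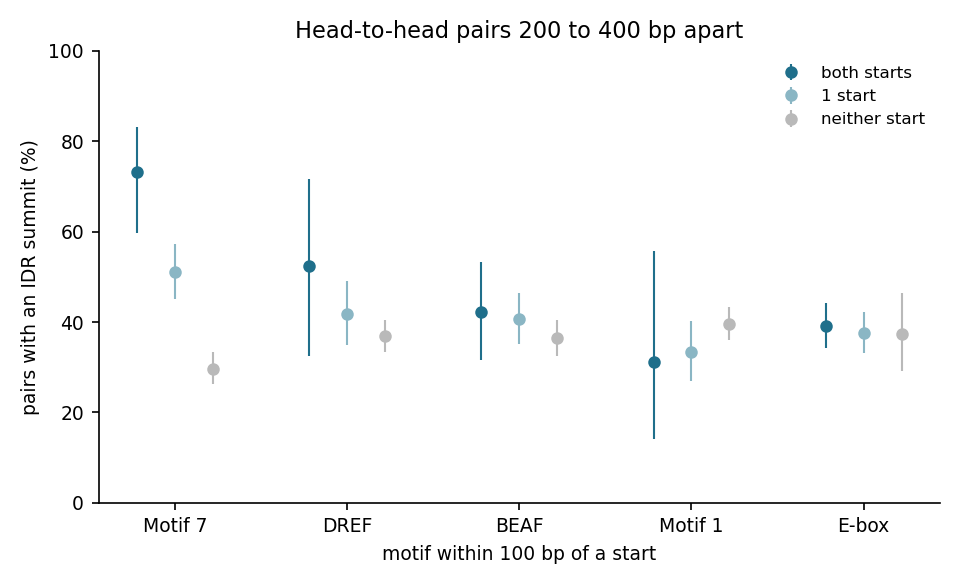
Percent of head-to-head pairs 200 to 400 bp apart with an IDR summit (y axis), for pairs with the named word within 100 bp of both starts, 1 start or neither start; bars are Wilson 95% intervals. For Motif 7 the 3 shares are 73.1%, 51.2% and 29.7%, and for the E-box 39.1%, 37.5% and 37.4%.

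The genes at divergent promoter peaks are described by 18 lists, beside the share over all genes. In all, 1174 of 13968 protein-coding genes (8.4%) were at such a peak, which is 22.8% of the genes in a pair. Cytosolic ribosomal protein genes were at one in 26 of 93 cases, or 46.4% of the 56 in a pair. The 26 include RpLP0-like, which its symbol brought into the list. The strongest were RpS27, at RpS27 / Nup37, with 326.8 in the IDR list, 130.6 in replicate 1 and 157.9 in replicate 3, and RpL7, at Ripalpha / RpL7, with 291.9, 102.4 and 135.4. Mitochondrial ribosomal protein genes were at one in 15 of 73 cases, or 25.9% of those in a pair, led by mRpS10 and mRpS23. Initiation and elongation factors had 3 of 52 genes, or 11.5% of the 26 in a pair, below the 22.8% over all paired genes. The strongest was eIF4EHP with 417.6, which its symbol brought into the list. With any promoter IDR peak counted, 11 of these 52 genes (21.2%) were at one, against 13.8% of all genes. Aminoacyl-tRNA synthetases had 6 of 33, or 26.1% of those in a pair, led by GluProRS with 210.2 and IleRS with 207.5.

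Transcription and architecture genes were also among them. Mediator, the coactivator that links transcription factors to RNA polymerase II, had 8 of 25 genes at a divergent promoter peak, or 42.1% of those in a pair, MED27 with 239.3 and MED30 with 215.6 being the strongest. RNA polymerase and general transcription factor genes had 9 of 55, or 25% of those in a pair, led by Polr2B with 262.1 and Polr2H with 250.6. Of 16 insulator and promoter architectural protein genes, 5 were at one, 10 being in a pair: Chro, Cp190, Dref, M1BP and pzg. The Cp190 peak had 313, with 96.9 in replicate 1 and 180.7 in replicate 3. The pairs Cdk1 / mRpS7, Dref / RpL13 and RpL28 / eIF1 had each gene in a list, a different one for either gene.

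Energy, protein turnover and transport lists varied. Oxidative phosphorylation subunits had 12 of 87 genes at a divergent promoter peak, or 27.3% of those in a pair, ND-MWFE with 219.1 and ND-24 with 140.7 being the strongest. Vacuolar ATPase subunits, which acidify organelles, had 4 of 33, or 28.6% of those in a pair, led by Vha100-2 with 211 and Vha68-1 with 126.4. Proteasome subunits had 2 of 48, Rpn3 with 165.9 and Rpn5 with 150.1, or 7.69% of the 26 in a pair. The Rab list had 2 of 36, or 10.5% of those in a pair: Rab39 with 109.7 and Rab3GAP1 with 204.4, which its symbol brought into the list and which regulates a Rab. Cell cycle regulators had 3 of 20, or 33.3% of those in a pair: Cdk1, the mitotic kinase, with 123, the replication licensing gene dup with 111.7, and Mcm2.

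Lists of the sensory lineage in which cato is known were small, so their counts say little beside the 8.4% over all genes. Of 20 proneural and sense organ precursor genes 1 is in a divergent pair, and none was at a divergent promoter peak. Of 19 chordotonal neuron and cilium genes 7 are in a pair, and 1 was at a peak: Kap3, a subunit of the kinesin-2 motor that builds cilia. Its peak had 72.3 in the IDR list, 12 in replicate 1, where it ranked 9401, and 52.1 in replicate 3, where it ranked 1530. None of 14 differentiated neuron and glial genes, 13 muscle and gut genes, 119 odorant and gustatory receptor genes and 121 cuticular protein genes was at one. Few of these genes are in a divergent pair (2, 2, 16 and 15), so the rule could seldom reach them. With any promoter IDR peak counted, the proneural list had 10% of its genes at one and the neuron and glial list 14.3%, against 13.8% of all genes. The chordotonal and cilium list had 5.26%, the muscle and gut list 23.1%, and the receptor and cuticular protein lists 0%. Lists are described by counts, with no test.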

How the data were processed

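The measurements are peak lists from chromatin immunoprecipitation sequencing of cato-eGFP in 2 biological replicates. Signal values are as the authors deposited them, on the scale of an unnamed peak caller. Caller, aligner, normalization and sequencing depth: not given in the sources used here. Counting error of single peaks is therefore unknown. The dm6 IDR list and the dm6 replicate lists (30000 peaks each, weak ones included) were used. No row of the IDR list was in the deposited dm6 pooled list (0 of 2746), which was not used, nor were the dm3 lists.

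Start sites are those of Ensembl 115, BDGP annotation 6.54, and bases are from RefSeq. Positions are 1-based. A summit is the deposited start plus the deposited offset. Overlap meant at least 1 bp, and strong meant a rank of 2746 or better in a replicate. Words were searched on both strands within 50 bp of summits and 150 bp of midpoints. Lists of equal length from each replicate served as a check. Python 3.11.15, numpy 2.4.6, pandas 2.3.3, scipy 1.17.1 and matplotlib 3.10.9 were used, and the classing, pairing and word search were tested on simulated data.

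Shares carry Wilson 95% intervals and no test. Named genes are those at the 10 strongest divergent promoter peaks, at up to 2 strongest per gene list, at the shortest and longest distances and beside the 500 bp limit; others named were chosen after their values were seen. The members and the 18 gene lists, made from symbols, were chosen with earlier results of these data known. Bound shares by distance and by word (12 words in 4 distance classes) were chosen after seeing the data. A scan of all 6-base words at the summits was looked at and is not reported.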

Additional observations from a re-analysis of the deposited data

How the results depend on the processing

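No paired analysis was possible because there is 1 group of samples and no second group to pair it with. Lists of 2746 peaks from 1 replicate alone gave 569 to 628 divergent promoter peaks, a share of pairs with a summit of 21.7% to 24.2%, and shares of 2.81% to 4.30% (DREF), 7.73% to 8.60% (BEAF), 0.879% to 1.59% (Motif 1), 7.38% to 7.96% (Motif 7) and 28.1% to 30.1% (E-box). For the median signal the same 597 IDR peaks were kept, each with its strongest overlapping peak in a replicate list of 30000. It was 41.4 in replicate 1 and 58.5 in replicate 3, on the scale of those lists. The number of divergent promoter peaks was 384 with starts within 250 bp and 333 in the stronger 50% of the list. The share strong in both replicates was 38.4% with the 1000 strongest, 97.7% with the 5000 strongest and 71.5% with summits at most 100 bp apart. The share of pairs with a summit was 27.8% for pairs up to 500 bp apart and 26.7% up to 300 bp. With 1 start per gene, 79.8% of summits lay between the starts. Within 100 bp of the summit the shares were 8.71% (DREF), 19.4% (BEAF), 4.69% (Motif 1), 19.9% (Motif 7) and 53.6% (E-box). Within 25 bp they were 2.35% (DREF), 5.03% (BEAF), 2.35% (Motif 7) and 14.2% (E-box). Motif 1 was in 0.300% of windows in the stronger 50%.

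Among settings chosen after seeing the data, the stronger 50% of the list gave 23.3% of head-to-head pairs 200 to 400 bp apart with a summit and 11.5% of those up to 200 bp apart. With 1 start per gene these were 38.3% and 17.7%. In every setting run, including either replicate alone, the share was higher at 200 to 400 bp. For the gene lists, 11 of 36 counts moved by more than 1.5 times with another start distance. Cytosolic ribosomal protein genes numbered 16 within 250 bp, cell cycle regulators 0 within 250 bp and 5 within 1000 bp. Unknown depth limits all of this: absence from the list does not show absence of binding.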

Other observations

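At 561 of the 597 divergent promoter peaks there were 2 genes within 500 bp of the summit, at 33 there were 3, and at 3 there were more. A peak on 3R (signal 266.1) lay near 10 annotated genes named pre-mod(mdg4), which encode the variable exons that are trans-spliced to mod(mdg4), a chromatin protein gene whose exons lie on both strands. A peak on 2R (237.7) lay near 5 genes, PIG-M and NC2alpha among them, and a peak on X (69.1) near 4, COX6B and Rpp20 among them. By chromosome, divergent promoter peaks made up 27.0% of the IDR peaks on 3R, 24.6% on 2L, 21.7% on 3L, 20.3% on 2R and 13.2% on X. Chromosome 4 had 0 of 11 head-to-head pairs with an IDR summit, which allows a share of up to 25.9% by the Wilson interval.

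Genes at divergent promoter peaks had a median span of 2464.5 bp and a median of 5 exons. Genes in pairs without such a peak had 2238 bp and 4 exons, and genes in no pair 2079 bp and 4 exons. A symbol of the CG type, given where a gene has no other name, was held by 29.8% of the genes at divergent promoter peaks, 36.7% of the other paired genes and 48.7% of genes in no pair.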
